A study of Homo sapiens with 7 samples.

Results

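The oncofetal markers of liver cancer examined here are 7 genes that are active in the fetal liver and often active in hepatocellular carcinoma. Most of them, but not all, are largely silent in the adult organ. They are AFP, GPC3, H19, IGF2, DLK1, PEG10 and MDK, and they were found as the rows that carry these symbols among the 58174 genes of the deposited table. Total RNA-seq was made from Huh-7 cells, a human hepatocellular carcinoma line, 72 h after transfection. The control cells received a control siRNA (siC, 3 libraries), and the other cells received a pool of siRNAs directed against IGF2BP1 (siImp1, 4 libraries). Both groups come from the same cell line and differ, by the labels, only in the siRNA. The comparison asks whether the abundance of these transcripts differs when IGF2BP1 is depleted.

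IGF2BP1 is an oncofetal protein itself, an RNA-binding protein of the cytoplasm that is named for its binding to IGF2 mRNA and is abundant in embryonic tissues and in many tumors. The markers have separate functions. AFP encodes alpha-fetoprotein, the main protein of fetal serum and the classical blood marker of hepatocellular carcinoma, and GPC3 encodes glypican-3, a heparan sulfate proteoglycan anchored to the cell surface. IGF2 and MDK encode secreted growth factors, insulin-like growth factor 2 and midkine, DLK1 encodes a membrane protein related to the Notch ligands, PEG10 encodes a protein derived from a retrotransposon, and H19 is a noncoding RNA. H19, IGF2, DLK1 and PEG10 are imprinted, which means that in most tissues the copy from 1 parent is expressed.

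Because microRNAs shape fetal gene programs in the liver, the markers were searched for matches to let-7, whose family rises at the end of fetal development, and to miR-122, the most abundant microRNA of hepatocytes. H19 is in addition the host of miR-675. The mature sequences (RefSeq, GRCh38, written 5′ to 3′) have the seed, bases 2 to 8, in capitals, and the 4 seeds differ from each other.
hsa-let-7a-5p: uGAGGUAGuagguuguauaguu
hsa-miR-122-5p: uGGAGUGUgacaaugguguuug
hsa-miR-675-5p: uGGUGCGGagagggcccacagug
hsa-miR-675-3p: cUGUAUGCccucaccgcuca

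The seed match of let-7 (CTACCTC on the transcript strand) occurred 0 times in the longest annotated 3'UTR of the 6 coding markers and 0 times in the 2396-base H19 transcript that was read. Among 3'UTRs of like length (0.8 to 1.25 times), from 2.50% for the length of MDK to 26.3% for the length of PEG10 held this match. The match of miR-122 (ACACTCC) occurred 2 times in the 5161-base 3'UTR of PEG10 and in no other marker. Of 1454 3'UTRs of like length, 21.5% held at least 1 such match. Both PEG10 matches are given with their flanks, the match in capitals, on the plus strand of GRCh38. The first, at base 565 of that 3'UTR, also lies in the coding sequence of other annotated PEG10 transcripts, and the other is at base 2311.
PEG10 chr7:94665085-94665106: tgtccagaatgtgtACACTCCa
PEG10 chr7:94666831-94666852: tagcacccagattcACACTCCt
These are matches of letters only, and binding was not measured.

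The targeted gene, IGF2BP1, served as a check of the labels. The transcript had 81.9, 80.4 and 84.4 FPKM (fragments per unit of gene length, scaled by library size) in siC replicates 1 to 3, and 15.6, 15.7, 16.6 and 15.3 FPKM in siImp1 replicates 1 to 4. The siImp1 mean was 19.2% of the siC mean, with a log2 change of -2.37 ± 0.0558 (SE, adjusted p = 1.2e-05 by limma). Libraries held from 12826550 to 33212205 reads on genes. All 8 hepatocyte-lineage markers examined, such as ALB and HNF4A, averaged 1 FPKM or more and summed to 3206 to 3581 FPKM in siC and 3445 to 3523 in siImp1. ALB (1814 ± 95.3 and 1993 ± 46.5 FPKM) gave the largest part of this sum, which hides the other members. Log2 changes were 0.44 for APOA1, 0.20 for SERPINA1, 0.14 for ALB and 0.078 for HNF4A. They were -0.32 for APOB, -0.49 for TTR and KRT8, and -1.30 for KRT18 (adjusted p = 0.0139 by limma, 0.00063 without siC replicate 3). The 4 fibroblast markers summed to at most 1.33 FPKM in any library and the 3 endothelial markers to at most 3.30 FPKM. Of the 4 immune markers, PTPRC, CD68 and CD3E had 0 to 2 reads per library, and their sum of 147 to 163 FPKM in siC and 113 to 129 in siImp1 was nearly all LYZ (157 ± 8.67 and 122 ± 6.96 FPKM). Of the 4 cholangiocyte markers, KRT7 was at 0 throughout and CFTR averaged 0.173 FPKM, and their sum of 65.4 to 79.7 FPKM in siC and 50.9 to 58.0 in siImp1 was nearly all KRT19 (42.8 ± 12.5 and 36.5 ± 2.83 FPKM) and SOX9 (31.7 ± 4.60 and 18.9 ± 0.580 FPKM).

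The siC library of replicate 3 stood apart from the other siC libraries, and this touches all results on the markers. Its log2 distance from the mean of the other siC libraries had a median size of 0.327 over the 14839 genes that averaged 1 FPKM or more and were tested. For the markers the distance was -1.18 for DLK1, -0.82 for MDK, -0.51 for IGF2, -0.41 for GPC3, -0.39 for AFP, 0.45 for H19 and 0.72 for PEG10. Every marker thus lay farther from its group in this library than the median gene. The GC content of the longest transcript is 63.6% for H19, 62.0% for MDK, 60.5% for IGF2, 55.1% for DLK1, 46.9% for GPC3, 44.8% for PEG10 and 39.0% for AFP. The part of GC content in the marker values was not tested beyond the fit with the GC trend removed that is given with the results. Each tested marker is therefore described with and without siC replicate 3. H19 averaged under 1 FPKM and has no fit without that library.

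**Figure D1:**
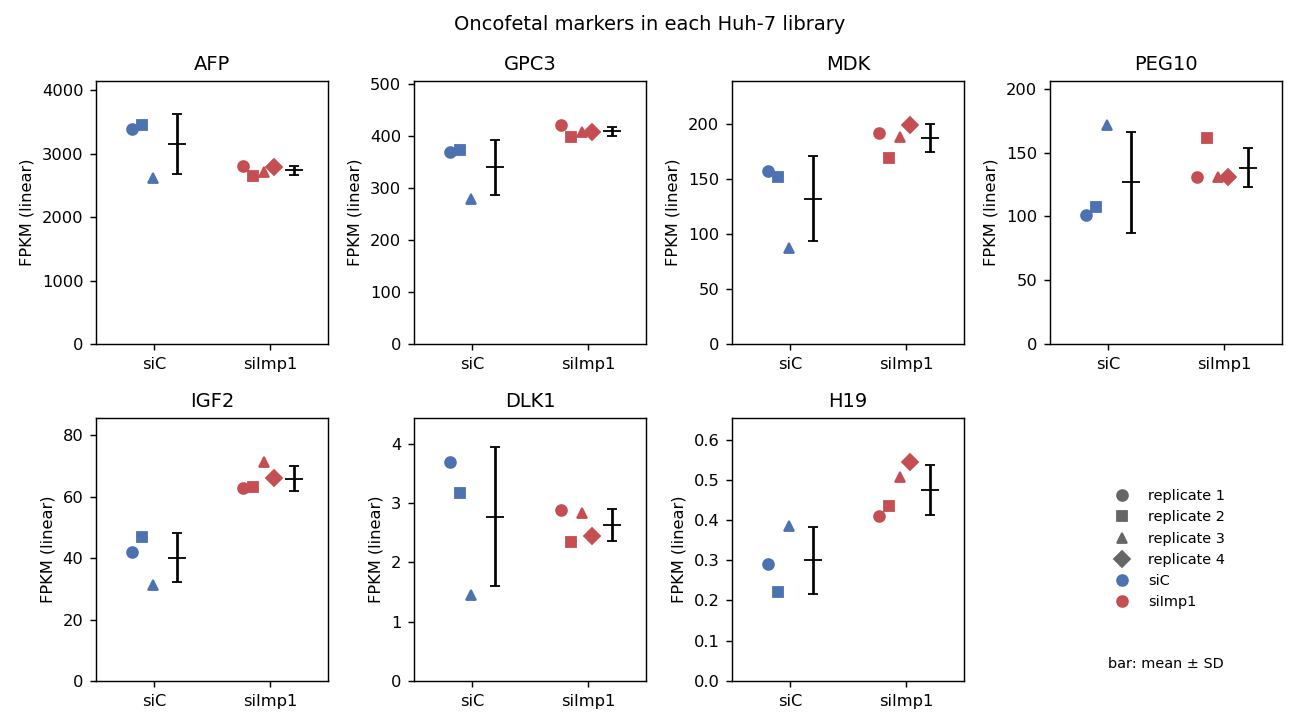
Abundance of the 7 oncofetal markers in each library (FPKM, linear axes from 0; 1 panel per gene, points are libraries, black bars are mean ± SD of 3 siC and 4 siImp1 libraries). IGF2, GPC3, MDK and H19 are higher in each siImp1 library than in any siC library, which held for 11.9% of all genes tested. H19 averaged under 1 FPKM and was not tested, and its groups are only just apart. SiC replicate 3 (blue triangle) stands apart from the other 2 siC libraries for AFP, GPC3, MDK, PEG10, IGF2 and DLK1.

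On the per-length scale of FPKM, the levels in siC ran from AFP at 3151 ± 469 (SD, n = 3) through GPC3 at 340 ± 52.9, MDK at 132 ± 38.7, PEG10 at 127 ± 39.2, IGF2 at 40.1 ± 8.02 and DLK1 at 2.77 ± 1.18 down to H19 at 0.300 ± 0.0826. MDK and PEG10 overlapped in siC and cannot be ranked there, whereas the other neighbours in this order did not overlap. In siImp1 the order was the same, and MDK (170 to 199 FPKM) lay above PEG10 (131 to 161 FPKM) without overlap.

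Of the 14839 genes tested with limma, 583 (3.93%) passed an adjusted p of 0.01, 245 of them (1.65%) higher and 338 (2.28%) lower in siImp1. Of the 7 markers, 6 were tested and 0 passed in either direction, whereas voom called 1, IGF2. H19 had a mean under 1 FPKM and was not tested. These are bulk values of 1 cell line, in which fewer cells that express a marker and less of its RNA per cell cannot be told apart. At an unadjusted p under 0.05, 3 of the 6 tested markers (IGF2, MDK and GPC3) were higher and 0 were lower in siImp1, beside 25.9% of all genes tested in either direction. The 3 had much the same profile over the libraries (Pearson's r from 0.917 to 0.990), each lowest in siC replicate 3, so they are not separate results. These 3 were also the tested markers whose siImp1 values all lay above the siC values, which held for 1773 of all genes tested (11.9%). The median log2 change of the 6 tested markers was 0.22, beside -0.017 over all genes tested.

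IGF2 (ENSG00000167244, GRCh38 chromosome 11, 2129112 to 2158391, minus strand) encodes the growth factor whose mRNA gave IGF2BP1 its name. IGF2 mRNA was present at 42.1, 46.9 and 31.3 FPKM in siC replicates 1 to 3, and at 63.0, 63.2, 71.5 and 66.1 FPKM in siImp1 replicates 1 to 4. All siImp1 libraries were thus above all siC libraries, and the lowest value was that of siC replicate 3. The siImp1 mean of 65.9 ± 3.95 (SD, n = 4) was 164% of the siC mean. The log2 change was 0.73 ± 0.138 (SE, 95% interval 0.41 to 1.06, adjusted p = 0.0177 by limma), the largest among the tested markers, and it missed the threshold of 0.01. Without siC replicate 3 the change was 0.57 with an adjusted p of 0.0034, and with the GC trend removed it was 0.77 with an adjusted p of 0.0012, so that IGF2 passed under both settings. These fits called 533 and 459 genes higher in siImp1, beside 245 in the main fit. IGF2 passed in no other fit that left out a library (adjusted p = 0.0242 to 0.0585 by limma), and without a filter on low genes the adjusted p was 0.0362. Voom, which models the recovered reads (2693 to 9404 per library), gave 0.74 with an adjusted p of 0.0078.

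IGF2 shares its region with other annotated genes. INS-IGF2, a read-through transcript on the same strand, was listed at 0, MIR483 lies within IGF2, and IGF2-AS is transcribed from the opposite strand. The MIR483 row covers only bases 2134134 to 2134209, so its mean of 1.90 FPKM rests on few reads. Its log2 change was -2.17 with a wide interval that includes 0 (95% interval -4.54 to 0.19, adjusted p = 0.226 by limma), so that no direction can be read from it. The mature microRNA was not measured in these libraries. IGF2-AS had 0.431, 0.424 and 0.304 FPKM in siC and 0.750, 1.02, 0.710 and 0.698 FPKM in siImp1, from 12 to 55 reads. These groups also did not overlap, but the gene was under the filter, and in a fit without a filter its log2 change was 0.88 (adjusted p = 0.110 by limma). The libraries were made with a kit that keeps the strand, but whether reads were assigned by strand is not stated, so reads of IGF2 and of IGF2-AS may not have been fully told apart.

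H19 (ENSG00000130600, chromosome 11, 1995166 to 2004552, minus strand) is the noncoding neighbour of IGF2 in the imprinted region 11p15.5 and the host of miR-675. It was close to the limit of these libraries, at 0.292, 0.221 and 0.386 FPKM in siC and 0.410, 0.434, 0.508 and 0.545 FPKM in siImp1, from 15 to 23 reads per library. The siImp1 libraries were all above the siC libraries, and the highest siC value lay just under the lowest siImp1 value. The mean in siImp1, 0.474 ± 0.0629 FPKM, was 158% of that in siC. In the fit without a filter the log2 change was 0.54 ± 0.25 (adjusted p = 0.367 by limma), so that a difference was not detectable at this depth. MIR675, which lies within H19, was listed at 0.

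The partners of IGF2 were taken from a list of 13 IGF receptors, receptor substrates and binding proteins, of which 7 were tested. Of these, 2 were higher and 1 was lower in siImp1 at the threshold, and the median log2 change was 0.084. IGF1R, a receptor through which IGF2 signals, had 4.63, 4.22 and 5.27 FPKM in siC and 2.43, 2.61, 2.69 and 2.51 FPKM in siImp1. It fell by 0.85 on the log2 scale (adjusted p = 0.0029 by limma), and the groups did not overlap. INSR, the insulin receptor, had a log2 change of 0.042 (adjusted p = 0.754 by limma) and is named after its values were seen. IGF2R, the receptor that clears IGF2 from the cell surface and that does not pass on its growth signal, had 13.8 ± 1.87 FPKM in siC and 14.7 ± 2.68 FPKM in siImp1, with a log2 change of 0.084 (adjusted p = 0.790 by limma). The binding proteins hold IGFs in the extracellular space. IGFBP3 rose from 1.84 ± 0.186 to 3.25 ± 0.271 FPKM (log2 change 0.79, adjusted p = 0.0063 by limma) and IGFBP4 rose from 15.6 ± 0.590 to 21.7 ± 0.276 FPKM (log2 change 0.47, adjusted p = 0.0029 by limma). IGFBP2 had a log2 change of 0.10 (adjusted p = 0.711 by limma). The calls of IGF1R, IGFBP3 and IGFBP4 each held in 1 of the 7 fits that left out a library, the one without siC replicate 3.

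MDK (ENSG00000110492, chromosome 11, 46380756 to 46383837, plus strand) encodes midkine, a heparin-binding growth factor of fetal tissues. Midkine mRNA was present at 157, 152 and 87.8 FPKM in siC and at 192, 170, 189 and 199 FPKM in siImp1. Each siImp1 library exceeded each siC library, with siC replicate 3 far below the other 2. With a mean of 188 ± 12.8 FPKM, siImp1 stood at 142% of the siC mean, and MDK moved from rank 226 to rank 136 among protein-coding genes. The log2 change was 0.55 ± 0.205 (95% interval 0.066 to 1.03, adjusted p = 0.145 by limma). Without siC replicate 3 it was 0.28 with an adjusted p of 0.0324, a smaller change, and the threshold was missed with and without that library. With the GC trend removed the change was 0.58 (adjusted p = 0.0186 by limma), which also missed the threshold. MDK overlaps CHRM4 on the opposite strand.

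**Figure D2:**
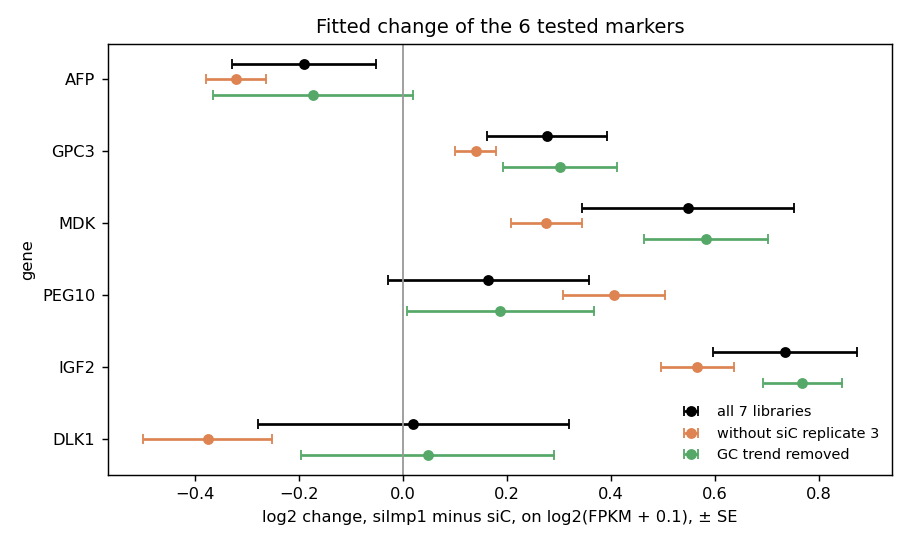
Fitted log2 change of the 6 tested oncofetal markers (siImp1 minus siC, on log2(FPKM + 0.1); points are limma estimates and bars ± SE) with all 7 libraries, without siC replicate 3, and with the GC trend removed. IGF2 has the largest change in each of these fits (0.73, 0.57 and 0.77), and DLK1 changes its sign without siC replicate 3 (0.019 and -0.38).

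GPC3 (ENSG00000147257, chromosome X, 133535745 to 133987100, minus strand) encodes glypican-3, a target of immunotherapies against liver cancer. It had 369, 372 and 279 FPKM in siC and 421, 398, 408 and 408 FPKM in siImp1. The siImp1 libraries lay close together and all above the siC libraries, while siC replicate 3 lay below the other siC libraries. The siImp1 mean of 409 ± 9.58 was 120% of the siC mean. The log2 change was 0.28 ± 0.115 (95% interval 0.0052 to 0.55, adjusted p = 0.186 by limma), and without siC replicate 3 it was 0.14 (adjusted p = 0.0467 by limma). GPC3 was among the most abundant protein-coding transcripts, at rank 65 in siC and rank 44 in siImp1. A pseudogene, RPS24P19, overlaps it on the opposite strand.

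Of the 22 glypicans, syndecans and genes of heparan sulfate metabolism or glypican binding that were listed, 14 were tested. At the threshold 1 was higher and 2 were lower in siImp1, and the median log2 change was -0.089. GPC4, the neighbour of GPC3 on chromosome X, had 0.106 ± 0.0326 FPKM in siC and 0.0277 ± 0.0192 FPKM in siImp1, from 1 to 17 reads, and was not tested. SDC2, a syndecan of the cell surface, rose from 41.8 ± 0.379 to 55.8 ± 0.668 FPKM (log2 change 0.41, adjusted p = 0.0033 by limma). EXTL3, an enzyme that starts heparan sulfate chains, fell by 0.69 on the log2 scale from 5.88 ± 0.673 to 3.58 ± 0.132 FPKM (adjusted p = 0.0054 by limma). CD81, a tetraspanin that is reported to bind glypican-3, had 8.62, 8.34 and 7.75 FPKM in siC and 5.25, 4.72, 5.38 and 5.37 FPKM in siImp1. Its groups did not overlap, and it fell by 0.66 on the log2 scale (adjusted p = 0.0029 by limma). When 1 library was left out at a time, the call of CD81 held in 2 of 7 fits, and those of SDC2 and EXTL3 in 1 of 7, without siC replicate 3.

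AFP (ENSG00000081051, chromosome 4, 73431138 to 73456174, plus strand) was the most abundant protein-coding transcript of the table in both groups. It reached 3392, 3450 and 2611 FPKM in siC and 2803, 2653, 2711 and 2793 FPKM in siImp1. The siImp1 libraries lay between siC replicate 3, which was the lowest of all, and the other siC libraries, so that the groups overlapped. AFP took 1.07%, 1.08% and 0.838% of the reads on genes in siC and 0.933%, 0.889%, 0.904% and 0.921% in siImp1. On average siImp1 had 2740 ± 71.2 FPKM, 86.9% of the siC mean. The log2 change was -0.19 ± 0.139 (95% interval -0.52 to 0.14, adjusted p = 0.450 by limma). Without siC replicate 3 it was -0.32, with an adjusted p of 0.0112, larger in size and still short of the threshold. The sign turned under quantile normalization, with a change of 0.33, and array weights, which give less weight to libraries that deviate, gave -0.30 with an adjusted p of 0.0080, past the threshold. The fit with array weights called many more genes, 1722 lower in siImp1 beside 338 in the main fit.

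ALB encodes serum albumin, which takes over from alpha-fetoprotein after birth and lies beside AFP on chromosome 4. It had 1814 ± 95.3 FPKM in siC and 1993 ± 46.5 FPKM in siImp1, with a log2 change of 0.14 (adjusted p = 0.443 by limma). The ratio of AFP to ALB FPKM, which was chosen after the values were seen and is given with no test, was 1.83, 1.83 and 1.53 in siC and 1.43, 1.30, 1.39 and 1.38 in siImp1. Every siImp1 library thus had a lower ratio than every siC library, siC replicate 3 included. ALB alone was also higher in each siImp1 library (1944 to 2042 FPKM) than in any siC library (1705 to 1884 FPKM), whereas AFP overlapped. Neither gene passed the threshold, and how many other ratios would separate the groups was not examined.

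Of the 20 genes of the albumin family and regulators of AFP, 19 were tested, of which 2 were higher and 0 lower in siImp1 at the limma threshold, with 4 higher and 0 lower at an unadjusted p under 0.05 and a median log2 change of 0.074. AFM encodes afamin, a vitamin E-binding member of the albumin family from the same cluster. It rose from 0.347, 0.612 and 0.453 FPKM in siC to 2.66, 2.23, 2.35 and 2.30 FPKM in siImp1, a log2 change of 2.15 (adjusted p = 0.0015 by limma), from 14 to 108 reads. AFM passed the filter of 1 FPKM through its siImp1 values, and its call held in 4 of the 7 fits that left out a library. GC, which encodes the vitamin D-binding protein of the same cluster, had 83.8 ± 21.0 FPKM in siC and 160 ± 5.83 FPKM in siImp1. Its groups did not overlap, but it did not pass (log2 change 0.97, adjusted p = 0.0142 by limma), and it is named here after its values were seen. ZHX2, a repressor of AFP in the adult mouse liver, had 24.4, 23.2 and 19.8 FPKM in siC and 32.8, 31.2, 33.9 and 32.7 FPKM in siImp1. It rose by a log2 change of 0.54 (adjusted p = 0.0086 by limma), a call that held in 1 of 7 fits with a library left out, without siC replicate 3. ZBTB20, another repressor of AFP, had 3.50 ± 1.02 FPKM in siC and 3.61 ± 0.266 FPKM in siImp1, with a log2 change of 0.077 (adjusted p = 0.836 by limma).

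DLK1 (ENSG00000185559, chromosome 14, 100725705 to 100738224, plus strand) marks hepatoblasts, the progenitor cells of the fetal liver. It was low in these cells, at 3.70, 3.17 and 1.45 FPKM in siC and 2.89, 2.34, 2.83 and 2.45 FPKM in siImp1, from 106 to 539 reads. The siImp1 libraries fell between siC replicate 3 and the other siC libraries. The siImp1 mean of 2.63 ± 0.272 was 94.7% of the siC mean on the linear scale, whereas the fitted change, a difference of mean log2 values in which the low siC replicate 3 weighs more, was 0.019 ± 0.299 (95% interval -0.69 to 0.72, adjusted p = 0.981 by limma). Without siC replicate 3 the fitted change was -0.38 (adjusted p = 0.0728 by limma), and over all fits that left out a library it ran from -0.38 to 0.27. The sign of the fitted change also turned with a pseudocount of 1, quantile normalization, voom and array weights.

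The neighbours of DLK1 in the imprinted region 14q32.2 were at or near 0. MEG3, a noncoding RNA expressed from the maternal copy, had 1 read in 1 of the 7 libraries, and RTL1 and MEG9 had 0. MEG8 also had 1 read in 1 library. PTN, which encodes pleiotrophin, the only close relative of midkine, had 0 to 10 reads per library.

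MDK can bind Notch2 and DLK1 belongs to the family of Notch ligands, so midkine receptors and genes of the Notch pathway were listed together (20 genes, of which 12 were tested). At the limma threshold 2 were higher and 0 lower in siImp1, with 6 higher and 3 lower at an unadjusted p under 0.05, and the median log2 change was 0.17. NOTCH3, a Notch receptor, had 1.07, 1.07 and 0.712 FPKM in siC and 2.75, 2.32, 2.58 and 2.17 FPKM in siImp1, a log2 change of 1.30 (adjusted p = 0.0060 by limma). HEY1, a transcriptional target of Notch signaling, had 0.822, 0.705 and 0.697 FPKM in siC and 1.88, 1.88, 2.12 and 1.57 FPKM in siImp1, a log2 change of 1.22 (adjusted p = 0.0059 by limma). In both genes the groups were far apart, but their siC means were under 1 FPKM, so that they passed the filter through siImp1. Each call held in 1 of 7 fits with a library left out, without siC replicate 3. JAG1, a Notch ligand, and RBPJ, the transcription factor of the pathway, did not pass (log2 changes -0.47 and -0.79, adjusted p = 0.0141 and 0.0131 by limma). NOTCH2 did not pass either (-0.27, adjusted p = 0.186 by limma). Of the midkine receptors, ITGA6, ITGB1, LRP6 and LRP1 had log2 changes of 0.30, 0.29, 0.22 and 0.34. They did not pass (adjusted p = 0.0134, 0.0207, 0.0570 and 0.176 by limma). All of these genes are named after their values were seen.

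PEG10 (ENSG00000242265, chromosome 7, 94656325 to 94669695, plus strand) is expressed from the paternal copy and is often raised in hepatocellular carcinoma. It was present at 100.7, 107.3 and 171.6 FPKM in siC and at 130.8, 161.0, 130.7 and 130.6 FPKM in siImp1. It was the only coding marker whose highest value was that of siC replicate 3, and replicate 2 stood above the other siImp1 libraries, which were nearly equal. The siImp1 mean of 138 ± 15.2 was 109% of the siC mean, and the log2 change was 0.16 ± 0.193 (95% interval -0.29 to 0.62, adjusted p = 0.661 by limma). Single libraries decided the size of this change. It was 0.40 without siC replicate 3 (adjusted p = 0.0294 by limma), 0.021 without siC replicate 1 (adjusted p = 0.962 by limma), 0.066 without siC replicate 2 and 0.089 without siImp1 replicate 2, and it missed the threshold in all 7 such fits. SGCE, the imprinted sarcoglycan gene that starts beside PEG10 and runs on the opposite strand, had 22.3 ± 1.28 FPKM in siC and 26.5 ± 0.787 FPKM in siImp1. Its groups did not overlap, and its log2 change was 0.25 (adjusted p = 0.0451 by limma). Without siC replicate 3 the change of SGCE was 0.29 (adjusted p = 0.0054 by limma), past the threshold, in a fit that called more genes in all. The annotated 5′ ends of PEG10 and SGCE overlap.

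**Figure D3:**
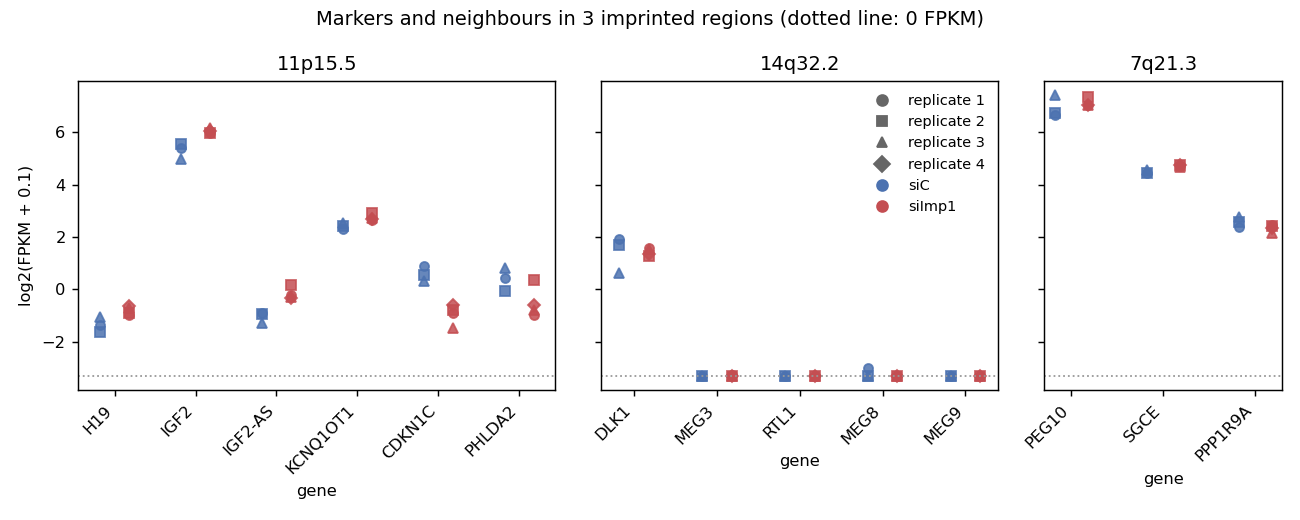
Levels of the imprinted markers and their neighbours in 3 imprinted regions, as log2(FPKM + 0.1) in each library (color by group, shape by replicate, dotted line at 0 FPKM). DLK1 is the only gene of 14q32.2 shown with more than 1 read in any library, while IGF2 and PEG10 lie above all neighbours plotted in their regions.

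Of 30 further imprinted genes, 12 were tested with limma and 0 passed the threshold in either direction, while 2 were higher and 1 was lower at an unadjusted p under 0.05. Without siC replicate 3, 1 of the 12, SGCE, was higher past the threshold. Their median log2 change was -0.031, with a range from -0.45 to 0.32, and 5 of the 30 were at 0 in all libraries. KCNQ1OT1, the long noncoding RNA of the other imprinted domain at 11p15.5, had 5.27 ± 0.402 FPKM in siC and 6.61 ± 0.545 FPKM in siImp1, with a log2 change of 0.32 (adjusted p = 0.0643 by limma). CDKN1C, a cell cycle inhibitor of that domain that is named after its values were seen, was under the filter at 1.75, 1.34 and 1.15 FPKM in siC and 0.427, 0.474, 0.263 and 0.566 FPKM in siImp1, from 9 to 111 reads. In the fit without a filter its log2 change was -1.52 (adjusted p = 0.0322 by limma).

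Among 30 other markers of liver cancer and hepatic progenitors, 26 were tested, 1 was higher and 2 were lower in siImp1 at the threshold, and the median log2 change was -0.024. LGR5, a Wnt target and a marker of progenitor cells, had 6.73, 6.39 and 7.37 FPKM in siC and 11.9, 12.3, 12.5 and 11.4 FPKM in siImp1, a log2 change of 0.81 (adjusted p = 0.0012 by limma). PROM1, which encodes the surface marker CD133, fell by 0.74 on the log2 scale from 32.4 ± 0.936 to 19.3 ± 0.578 FPKM (adjusted p = 0.00064 by limma). SOX9, a transcription factor of biliary and progenitor cells, fell by 0.73 on the log2 scale from 31.7 ± 4.60 to 18.9 ± 0.580 FPKM (adjusted p = 0.0051 by limma). The calls of LGR5 and PROM1 held whichever library was left out, and that of SOX9 held in 1 of 7 such fits, without siC replicate 3.

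**Figure D4:**
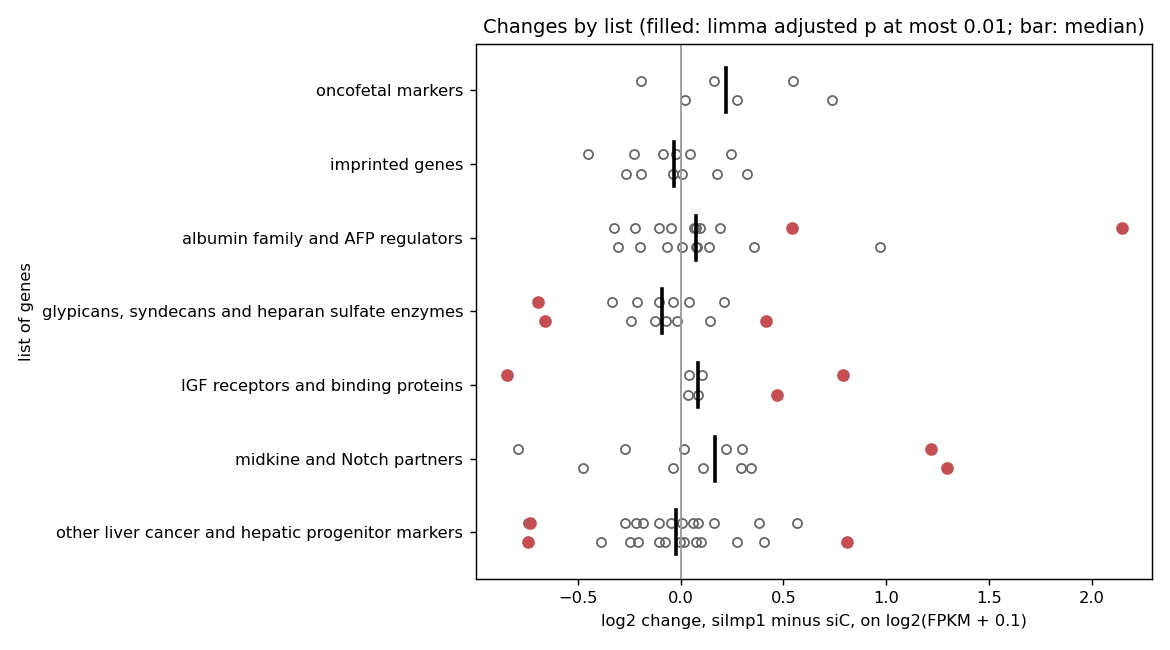
Log2 change (siImp1 minus siC, on log2(FPKM + 0.1)) of each tested gene in the marker group and in 6 lists of related genes (points are genes, filled where the limma adjusted p was at most 0.01, bars are medians). None of the 6 tested markers and none of the 12 tested imprinted genes is filled, and list medians lie between -0.089 and 0.17 beside 0.22 for the markers.

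Similarity of profile was described as Pearson's r of log2(FPKM + 0.1) over the 7 libraries, which share the cell line and the position of siC replicate 3, and no test was made. Among the markers, GPC3 and MDK were most alike (r = 0.990), followed by GPC3 and IGF2 (0.922) and by IGF2 and MDK (0.917). PEG10 ran opposite to AFP (-0.907) and DLK1 (-0.900). The genes nearest to each tested marker were TMEM115, MAD2L1BP and CCT6A for AFP (0.995, 0.993 and 0.991), TMEM120B, PDZK1 and NPW for GPC3 (0.998, 0.997 and 0.997), and ZG16, ABCC2 and TVP23B for IGF2 (0.995, 0.995 and 0.993). They were APOC1, RP11.736N17.8 and AC002310.7 for MDK (0.999, 0.999 and 0.998), DICER1, UBN2 and WEE1 for PEG10 (0.997, 0.996 and 0.995), and CTC.429P9.5, PLEC and PLD2 for DLK1 (0.991, 0.991 and 0.990).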

How the data were processed

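Sample titles gave the groups and the replicate numbers. Per the study's methods and the submitters' processing notes, the authors depleted ribosomal RNA, made libraries with a directional kit that marks strand, clipped reads with Cutadapt 1.14, aligned them to GRCh38 with HISAT2 2.1.0 and counted reads per gene with featureCounts 1.5.3 over Ensembl release 89, and used edgeR 3.18.1 with TMM normalization. The strand setting of the counting is not given in the sources used here. The deposited values are FPKM per gene and library, made by the authors with TMM-scaled library sizes. The authors' fold changes, p-values and FDR in the same table were not used. FPKM times gene length stepped in whole multiples of the value of 1 read for 100% of values (tolerance 0.1), which gave the reads per gene. TMM factors recovered in this way ran from 0.964 to 1.03.

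The 14839 genes that averaged 1 FPKM or more across the libraries were compared on log2(FPKM + 0.1) with limma 3.58.1 (R 4.3.3, eBayes with trend), two-sided, without covariates, with Benjamini-Hochberg adjustment over all genes tested and a threshold of 0.01. Log2 changes are siImp1 minus siC on this scale, which understates changes of low genes. Nothing in the labels says that libraries came from separate cultures, so p-values measure the spread between libraries, which may be technical. Libraries within a group differed by more than sampling noise, with 1.99 to 56.8 for chi-square divided by its degrees of freedom, the highest with siC replicate 3.

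The markers and the lists of related genes were chosen with earlier results of these data known. Named are the markers, IGF2BP1, of each list at most 5 genes past the threshold with the largest log2 change, fixed partners of the markers, and the 3 genes most correlated with each tested marker. Apart from the cell type markers, any other gene given with values, such as GC, JAG1, RBPJ, CDKN1C, IGF2-AS, KCNQ1OT1, MEG8 and MEG9, was chosen after its values were seen. Seed matches were read from the 3'UTRs of GENCODE release 44 (GRCh38), in each gene's transcript with the longest 3'UTR, and all 7 markers matched the annotation by identifier. Alternatives were another pseudocount, other filters, median centring, quantile normalization, voom, array weights, a replicate block, leaving out each library, and removal of a GC trend. The last was chosen after seeing the data.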

Additional observations from a re-analysis of the deposited data

Results flagged for a closer look

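Of 29 results examined in the 4 siImp1 libraries, 2 had 1 library whose gap to the others exceeded Dixon's 95% critical value. Chance flags about 1 in 20 groups, or 1.45 of 29, and groups of 3 such as siC were not examined. PEG10 was 161.039 FPKM in siImp1 replicate 2, beside 130.6 to 130.8 FPKM in the other siImp1 libraries. MEG3 was 0.0034995 FPKM in siImp1 replicate 1, which is 1 read, and 0 in the other siImp1 libraries. A single read against values of 0 always fills the whole range, so the MEG3 flag follows from the near-zero counts. The chance rate does not apply to it.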

How the results depend on the processing

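The count of genes lower in siImp1 (338) was 206 with no filter, 1722 with array weights, 511 over protein-coding genes and the markers, 1010 at a threshold of 0.05, and 53 to 988 when 1 library was left out. The count of genes higher (245) was 146, 1022 and 703 with no filter, array weights and a threshold of 0.05, 459 with the GC trend removed, and 66 to 533 when 1 library was left out. A replicate block gave 0 lower and 0 higher, and IGF2BP1 also lost its call there (adjusted p = 0.0909 by limma). With a term for each replicate number, that fit leaves few degrees of freedom, so it can call little. SiImp1 replicate 4 has no siC partner in it, and the log2 change of IGF2BP1 (-2.36) equalled that without this library. Same-numbered libraries deviated with correlations of -0.026, -0.118 and -0.111, which gave no sign of pairing. Deviations from a group mean depend on each other in such small groups, so these correlations cannot exclude paired cultures. The count of markers higher rose from 0 to 1, IGF2, with quantile normalization (log2 change 0.81), voom (0.74), array weights (0.55), protein-coding genes (0.73), a threshold of 0.05 (0.73), the GC trend removed (0.77) and without siC replicate 3 (leave-one-out range 0.57 to 0.86). The count of markers lower was 1, AFP, with array weights (-0.30). AFP reversed with quantile normalization (0.33). DLK1 reversed with a pseudocount of 1 (-0.0060), quantile normalization (-0.025), voom (-0.055) and array weights (-0.28), and ranged from -0.38 to 0.27 when 1 library was left out. With 1 library left out, IGF2R ranged from -0.030 (without siImp1 replicate 2) to 0.19, IGFBP2 from -0.023 (without siC replicate 3) to 0.24, and ZBTB20 from -0.051 (without siC replicate 1) to 0.30. The cause was not tested in any of these. Among the other values for named genes, 260 kept their direction and side of the threshold, 85 lost and 4 gained the call. H19 had a value only with no filter, and DLK1 none at a mean of 5 FPKM. Depth limits H19, with 15 to 23 reads, and DLK1, with 106 to 539.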
